A study of Zea mays with 11 samples.

Results

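The small RNA machinery genes were 48 of the 34145 maize genes in the expression table, and they were chosen by the wording of the Arabidopsis description that stands beside each identifier. A gene was a member when that description held argonaute, dicer, an RNA-dependent or RNA-directed RNA polymerase, double-stranded, hua enhancer, hyponastic, serrate or suppressor of gene silencing, with the exception of GRMZM2G042443. The rule itself reads no expression value, but the set was picked as a subject with earlier results of these data known. There were 31 argonaute matches, 8 dicer matches, 4 SERRATE matches, 3 HUA ENHANCER matches, 1 RNA-dependent RNA polymerase match and 1 SUPPRESSOR OF GENE SILENCING match. The words double-stranded, hyponastic and RNA-directed RNA polymerase matched 0 descriptions in the table used here.

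All plants were Mo17, a maize inbred line, field-grown, with ears selfed on a shared day, and the labels name no mutation, transgene or chemical treatment. Isolated endosperm was sampled at 8 stages, given as days after pollination (DAP): 7, 9, 10 and 11 DAP, then 13, 15, 20 and 25 DAP. The other libraries were whole kernels at 3 and 5 DAP and ear leaf, the control tissue, at 13 DAP. Each stage had 1 poly(A) RNA library, so the spread between plants of a stage was not measured. Values are deposited FPKM, which relate the fragments of a gene to its length and to the size of the library. No counts are given, so sequencing depth is unknown.

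Small RNA silencing in plants starts from double-stranded RNA. Dicer enzymes cut it into short duplexes, argonaute proteins load 1 strand, and the loaded complex finds matching RNA. The AGO1 group carries mostly microRNAs and cleaves or represses messengers in the cytoplasm, while the AGO4, AGO6 and AGO9 group carries short interfering RNAs that direct DNA methylation to transposons in the nucleus. RNA-dependent RNA polymerases and their partner SGS3 make more double-stranded RNA, and SERRATE helps dicer process microRNA precursors. These roles were worked out mainly in Arabidopsis. The series title names microRNAs and DNA methylation beside starch synthesis in the kernel, which is the setting for these genes here.

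Most marker lists separated endosperm from leaf, and a few markers did not. The 8 endosperm storage markers (such as zp16, sh2 and wx1) summed to between 94.94 and 34825.94 FPKM in endosperm, against 5.46 FPKM in ear leaf. The 8 identifiers of the leaf marker list summed to between 37.2 and 302.11 FPKM in endosperm and to 2954.42 FPKM in leaf. In endosperm most of that sum was ppdk1 from 9 DAP on and the pep1 identifier GRMZM5G899080 at 7 DAP. Basal transfer layer markers summed to between 56.72 and 1083.32 FPKM in endosperm and to 0.73 FPKM in leaf, with 5 of 8 at 0 there. In the other direction, the basal transfer layer gene mrp1 had 0.02 to 0.15 FPKM in endosperm and 0.64 FPKM in leaf, and the aleurone gene c1 at most 0.26 FPKM in endosperm and 11.23 FPKM in leaf. The 5 aleurone markers found summed to between 15.86 and 174.13 FPKM in endosperm, against 39.72 FPKM in leaf, so leaf was within the endosperm range. Of 8 embryo markers 4 were found, and they summed to between 27.09 and 141.61 FPKM in endosperm and to 0.41 FPKM in leaf, mainly from ole1 and glb1 in endosperm. The part of embryo tissue in the results was not tested. Late libraries were more dominated by a few genes: 27.09% of all FPKM came from the 10 highest genes at 25 DAP, against 4.54% at 7 DAP. The libraries are of bulk tissue, so fewer cells that express a gene and less RNA per cell cannot be told apart.

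Members differed widely in level. Of the 48, 14 stayed under 1 FPKM in all 11 libraries, and the 34 others are shown in the plot of levels by library. In 7 DAP endosperm 29 of 48 members and 15836 of 34145 genes reached 1 FPKM, and in 25 DAP endosperm 26 and 12507 did. Over the endosperm stages in order the members together summed to 380.85, 493.33, 353.42, 356.2, 278.85, 271.4, 210.06 and 240.33 FPKM. They summed to 540.85 and 568.01 FPKM in whole kernels at 3 and 5 DAP, and to 127.38 FPKM in ear leaf. The kernels were the highest libraries and leaf the lowest, and 9 DAP was the highest endosperm stage. The single SGS3 match made up a large part of each sum.

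**Figure D1:**
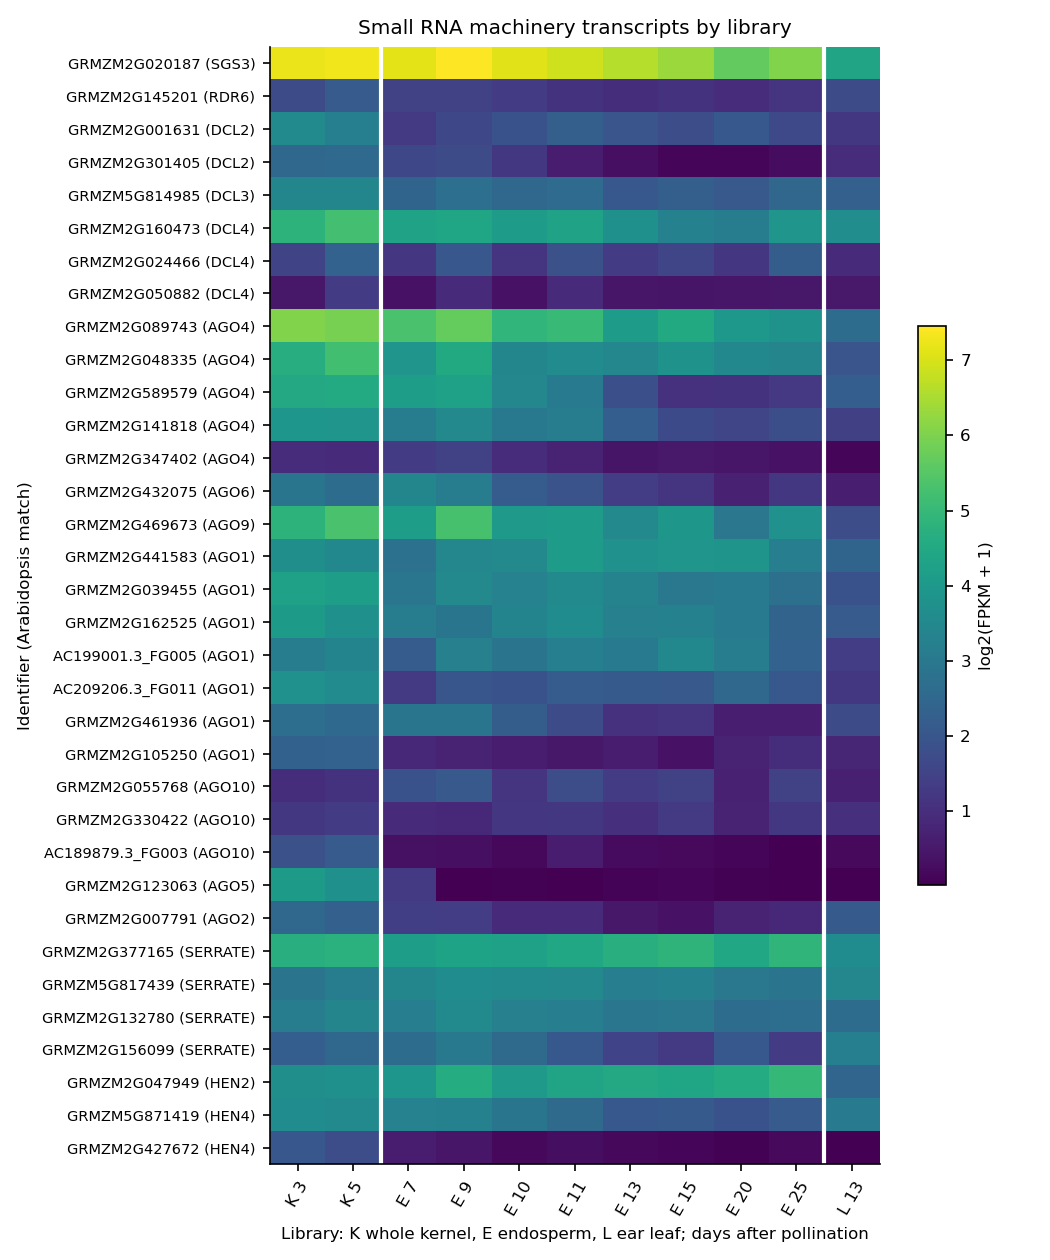
Levels of the 34 members that reached 1 FPKM in at least 1 library, as log2(FPKM + 1) by colour, with libraries as columns (K whole kernel, E endosperm, L ear leaf, each with its day after pollination) and identifiers as rows, grouped by role. The SGS3 match in the top row was the brightest member in every library, with 174.18 FPKM in 9 DAP endosperm and 19.63 FPKM in leaf.

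A trend was tested as the slope of log2(FPKM + 1) per day over the 8 endosperm libraries with limma, adjusted by Benjamini-Hochberg over all 15149 genes whose endosperm mean reached 1 FPKM. A second limma test of day and day squared together covered curved changes and is called the curved test. In both, departures from the fitted line or curve serve as the error, since no stage was replicated. Of the 48 members, 26 passed the filter on low values and 22 did not. The nearest members below the filter were the AGO2 match GRMZM2G007791, with a mean of 0.892 FPKM, and the DCL2 match GRMZM2G301405, with 0.855 FPKM. The nearest above it was the AGO10 match GRMZM2G330422, with 1.1 FPKM.

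Over endosperm development 10 of the 26 tested members fell, 0 rose and 16 were not called. Across all tested genes 37.4% fell and 10.3% rose, so the members fell about as often as the background. Their median slope was -0.0376 per day, beside -0.0339 for all tested genes (a shift of -0.61 in log2 units between the first and last stage in the typical gene). Quantile normalization brought that shift to -0.01, and under it 4 members fell and 3 rose, while 21.2% of all genes fell and 20.4% rose. By role, 4 of 6 tested AGO4, AGO6 and AGO9 matches, 3 of 4 SERRATE matches, 1 of 8 AGO1 and AGO10 matches and 0 of 4 dicer matches fell, beside lbl1 and a HEN4 match. Under quantile normalization 3 of 6 AGO4, AGO6 and AGO9 matches and 0 of 4 SERRATE matches fell. Dicer falls appeared when late libraries were left out. They were 1 of 4 without 25 DAP (35.3% of all genes), 1 of 4 without 9 and 25 DAP (33.6%) and 2 of 5 without 20 and 25 DAP (23.4%). In the curved test 12 of 26 members were called, against 54.4% of all genes, and 7 of these 12 were also called as falls. Without the 20 and 25 DAP libraries 6 of 27 tested members and 16.5% of all genes were called by it.

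**Figure D2:**
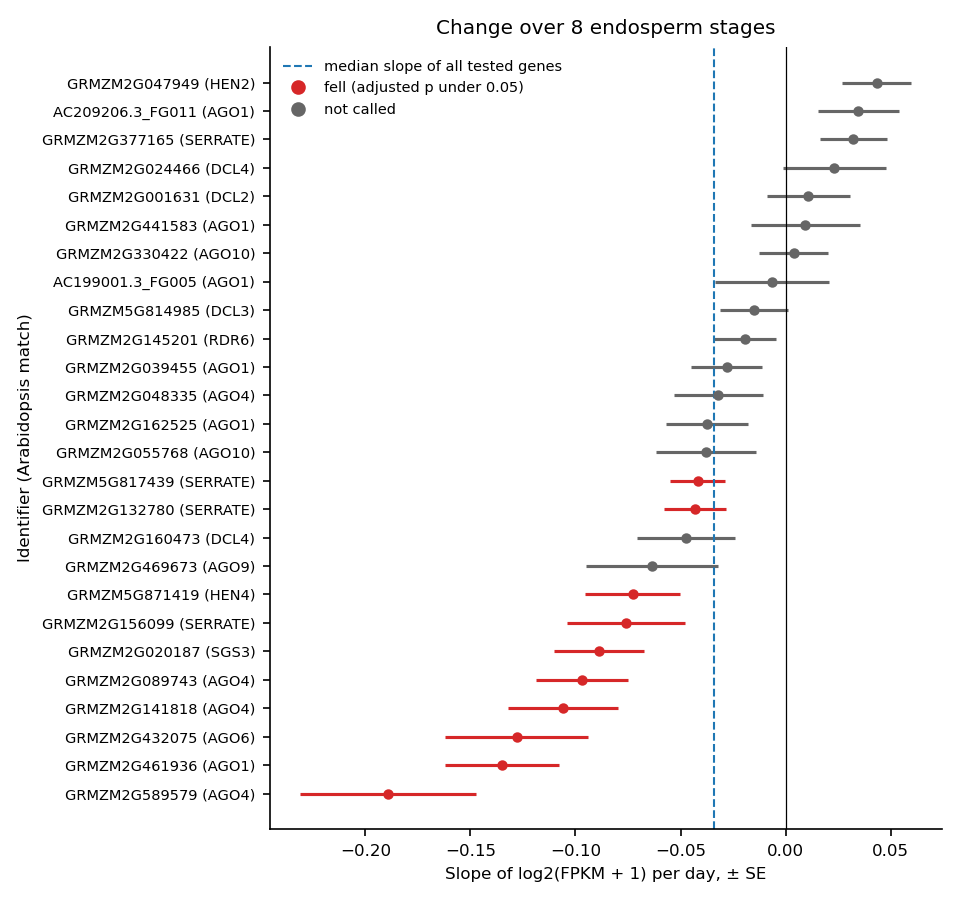
Slope of log2(FPKM + 1) per day in endosperm (8 libraries) for the 26 tested members (points, with bars of 1 SE), with the median slope of all 15149 tested genes as a dashed line at -0.0339. The 10 falling members (red) range from -0.189 for the AGO4 match GRMZM2G589579 to -0.0417 for the SERRATE match GRMZM5G817439, and the not called members (grey) lie on both sides of 0.

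Double-stranded RNA production was represented by lbl1 (GRMZM2G020187), the maize SGS3 gene, which is known for leaf polarity through trans-acting short interfering RNAs. It was the highest member in every library. Over the endosperm stages in order lbl1 stood at 140.44, 174.18, 138.12, 118.97, 98.11, 80.4, 49.99 and 65.14 FPKM, with 149.59 and 154.66 FPKM in the 3 and 5 DAP kernels and 19.63 FPKM in leaf. The level was thus highest at 9 DAP and lowest at 20 DAP within endosperm, and every endosperm library was above leaf. The lbl1 transcript fell (slope -0.0888 ± 0.0212 SE per day, limma adjusted p = 0.0087). The call ended after quantile normalization (0.075), after rescaling without the 100 highest genes (0.065) and without the 20 and 25 DAP libraries (0.051). Its partner polymerase gene rdr6 (GRMZM2G145201), which copies RNA into double strands, stayed far lower. The rdr6 values over the same stages were 1.72, 1.79, 1.5, 1.13, 0.98, 1.13, 0.96 and 1.24 FPKM, against 2.31 and 3.41 FPKM in the kernels and 2.34 FPKM in leaf. All 8 endosperm values of rdr6 lay below leaf, and neither the slope (adjusted p = 0.3) nor the curved test (0.16) was called.

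Dicer matches cover DCL2, DCL3 and DCL4, and 4 of the 8 were tested. DCL4 makes trans-acting short interfering RNAs, DCL3 the short interfering RNAs of the methylation pathway, and DCL2 acts in virus defence in Arabidopsis. The highest was GRMZM2G160473, named dcl4, at 18.78, 20.12, 16.23, 18.52, 12.55, 8.8, 8.01 and 13.95 FPKM over the endosperm stages in order. It reached 27.4 and 36.22 FPKM in the kernels and 11.74 FPKM in leaf, so leaf was within the endosperm range. Its slope was not called (adjusted p = 0.12), and its curved call (0.031) ended without 9 DAP (0.053), 10 DAP (0.058), 13 DAP (0.054), 15 DAP (0.089) or 20 DAP (0.099), and under quantile normalization (0.1), upper quartile scaling (0.072) and rescaling without the 100 highest genes (0.13). It also ended without both late libraries (0.058), without the filter on low values (0.065) and on log2 of the day (0.11). The gene dcl3a (GRMZM5G814985) stood at 4.29, 5.58, 4.78, 5.11, 3.21, 3.81, 3.23 and 4.5 FPKM, and both tests left it uncalled (0.47 and 0.38). It stood at 9.72 and 9.78 FPKM in the kernels and at 3.88 FPKM in leaf. The DCL2 match GRMZM2G001631 stood at 1.41, 2.1, 2.67, 3.77, 2.97, 2.44, 3.19 and 2.16 FPKM in endosperm, with 10.74 and 8.35 FPKM in the kernels and 1.35 FPKM in leaf. Neither of its tests was called (0.68 and 0.15).

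Another DCL2 match, GRMZM2G301405, missed the filter and was higher early. It stood at 2.09 and 2.27 FPKM at 7 and 9 DAP, at 1.33 and 0.52 FPKM at 10 and 11 DAP, and at 0.08 to 0.26 FPKM from 13 to 25 DAP. The kernels had 4.71 and 4.88 FPKM of it and leaf 0.95 FPKM. The remaining dicer matches GRMZM2G153627, GRMZM2G413853 and GRMZM2G050882 peaked at 0.45, 0.21 and 0.89 FPKM in endosperm.

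The AGO4, AGO6 and AGO9 matches, the nuclear argonautes of DNA methylation, held 8 members, of which 6 were tested, 4 fell and 0 rose, with a median slope of -0.101 per day (-0.0676 after quantile normalization). The highest was the AGO4 match GRMZM2G089743, at 39.13, 50.54, 29.35, 31.71, 16.53, 21.98, 14.69 and 13.1 FPKM over the endosperm stages. It had 65.01 and 60.07 FPKM in the kernels and 5.22 FPKM in leaf, so all endosperm libraries lay between leaf and kernels. It fell (slope -0.0969 ± 0.022 SE, adjusted p = 0.007), a call that ended without the 20 and 25 DAP libraries (0.057).

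The steepest fall of any member was that of the AGO4 match GRMZM2G589579. Its values were 16.99, 18.35, 9.88, 7.45, 2.58, 1.1, 1.16 and 1.4 FPKM in endosperm, 21.62 and 22.51 FPKM in kernels and 3.67 FPKM in leaf. The drop ran from 9 to 15 DAP, after which the level stayed near 1 FPKM and below leaf (slope -0.189 ± 0.0419 SE, adjusted p = 0.0064). The AGO4 match GRMZM2G141818 followed a like course at 7.77, 10.47, 7.07, 7.84, 3.68, 2.2, 1.94 and 2.5 FPKM, with 14.26 and 13.82 FPKM in kernels and 1.7 FPKM in leaf (slope -0.106 ± 0.0262 SE, adjusted p = 0.01). These falls were called under all 19 alternative settings.

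The AGO6 match GRMZM2G432075 was highest at the start of the endosperm series. It stood at 9.79, 7.72, 3.53, 2.77, 1.57, 1.22, 0.62 and 1.32 FPKM, against 6.45 and 5.28 FPKM in kernels and 0.55 FPKM in leaf, so the 7 DAP endosperm exceeded both kernels. It fell (slope -0.128 ± 0.0341 SE, adjusted p = 0.014), but not after quantile normalization (0.056) or without the filter on low values (0.051). The AGO9 match GRMZM2G469673 belongs to a type that acts in the germ line in Arabidopsis. It was at 16.81, 38.29, 15.48, 16.36, 10.38, 14.32, 6.87 and 12.67 FPKM in endosperm, 27.32 and 38.79 FPKM in kernels and 2.45 FPKM in leaf. The 9 DAP value stood above all other endosperm values, and no trend was called (adjusted p = 0.12, curved test 0.13). Markers of dividing cells moved over the same stages: 61 identifiers of histones, B cyclins, PCNA and related genes summed to 3388.76, 1325.93, 2142.67, 2552.62, 666.75, 772.88, 315.93 and 146.96 FPKM. Their part in the falls was not tested. The list was not uniform at 9 DAP, where the sum was below both neighbouring stages. At 7, 9 and 10 DAP the replication gene match MCM4 (GRMZM2G066101) stood at 26.92, 39.24 and 22.59 FPKM. The PCNA match GRMZM2G108712 stood at 42.61, 47.89 and 27.74 FPKM, but the other PCNA match, GRMZM2G030523, at 19.42, 16.68 and 15.06 FPKM. Also lower at 9 than at 7 DAP were the cyclin B2;4 match GRMZM2G073671 (32.2, 27.98 and 10.99 FPKM) and the histone H2A match GRMZM2G305046 (234.48, 126.92 and 281.93 FPKM). Of the falling AGO4 and AGO6 matches, GRMZM2G089743, GRMZM2G589579 and GRMZM2G141818 had their endosperm maximum at 9 DAP and GRMZM2G432075 at 7 DAP. A maximum at 9 DAP was not particular to falling members. The uncalled GRMZM2G469673, GRMZM2G048335, dcl4 (GRMZM2G160473), dcl3a and rdr6 had it too, and the share over all genes was not counted.

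The AGO1, AGO5 and AGO10 matches held 20 members, of which 8 were tested, 1 fell and 0 rose. Their median slope was -0.0172 per day, but 0.0149 after quantile normalization and 0.0161 after rescaling without the 100 highest genes. Without the 20 and 25 DAP libraries the median slope was 0.0371, so its sign depended on the scaling and on the late libraries. The highest in endosperm was the AGO1 match GRMZM2G441583, at 5.88, 10.08, 10.49, 16.34, 12.69, 13.85, 13.46 and 8.25 FPKM, with 12.12 and 10.2 FPKM in kernels and 4.3 FPKM in leaf. It was thus low at both ends of the endosperm series, and the curved test was called (adjusted p = 0.024; 0.11 without 7 DAP, 0.074 without 20 and 25 DAP), while the slope was not (0.79). The AGO1 match AC199001.3_FG005 had the same shape, at 3.55, 8.62, 6.29, 8.35, 7.51, 10.12, 8.01 and 4.08 FPKM, with 7.74 and 9.32 FPKM in kernels and 1.59 FPKM in leaf. Its curved call (0.023) ended without 7 DAP (0.055), 15 DAP (0.074), 25 DAP (0.082) or both late libraries (0.16), and without the filter on low values (0.052).

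The gene named argonaute1 (GRMZM2G162525) stood at 7.72, 6.52, 9.25, 11.46, 8.54, 8.72, 7.48 and 4.26 FPKM in endosperm, 15.62 and 12.35 FPKM in kernels and 3.41 FPKM in leaf. Its curved call (0.042) ended on leaving out 10 DAP (0.076), 11 DAP (0.072), 13 DAP (0.066), 15 DAP (0.074), 20 DAP (0.055) or 25 DAP (0.54), and under each of the 3 other scalings. It also ended without both late libraries (0.68), with a pseudocount of 5 (0.056), without the filter (0.061), on log2 of the day (0.064) and without 9 and 25 DAP (0.44). The AGO1 match GRMZM2G039455 was between 5.75 and 10.57 FPKM in endosperm, with 18.49 and 17.21 FPKM in kernels and 2.67 FPKM in leaf, and neither test was called (0.2 and 0.21). The AGO1 match AC209206.3_FG011 was far lower in endosperm than in kernels. It stood at 1.42, 3.01, 2.72, 3.56, 3.34, 3.25, 4.81 and 3.2 FPKM, against 12.84 and 11.21 FPKM in the kernels and 1.32 FPKM in leaf. Its slope was not called (0.16) but was called as a rise after quantile normalization, after rescaling without the 100 highest genes and without 25 DAP. Its curved call (0.041) ended without 7 DAP (0.36), 10 DAP (0.07), 11 DAP (0.061), 13 DAP (0.064), 20 DAP (0.11), 25 DAP (0.057) or both late libraries (0.099), with a pseudocount of 5 (0.052) and without the filter on low values (0.068).

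A single AGO1 match fell, GRMZM2G461936, and its course resembled the AGO4 matches more than the other AGO1 matches. Its values were 6.46, 6.42, 3.66, 2.29, 1.09, 1.22, 0.55 and 0.55 FPKM in endosperm, 5.45 and 4.94 FPKM in kernels and 2.25 FPKM in leaf. The early stages were above kernels and the late stages below leaf (slope -0.135 ± 0.0271 SE, adjusted p = 0.0042), and the call held under all 18 alternative settings that tested it. Of the AGO10 matches, a type that holds back a microRNA family in Arabidopsis meristems, GRMZM2G055768 stood at 2.71, 3.25, 1.19, 2.41, 1.48, 1.78, 0.62 and 1.82 FPKM in endosperm, 0.99 and 1.13 FPKM in kernels and 0.59 FPKM in leaf, with no called slope (adjusted p = 0.21). GRMZM2G330422 was between 0.64 and 1.44 FPKM in endosperm and was not called either (0.87). The other 4 AGO10 matches stayed at or under 0.49 FPKM in endosperm.

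**Figure D3:**
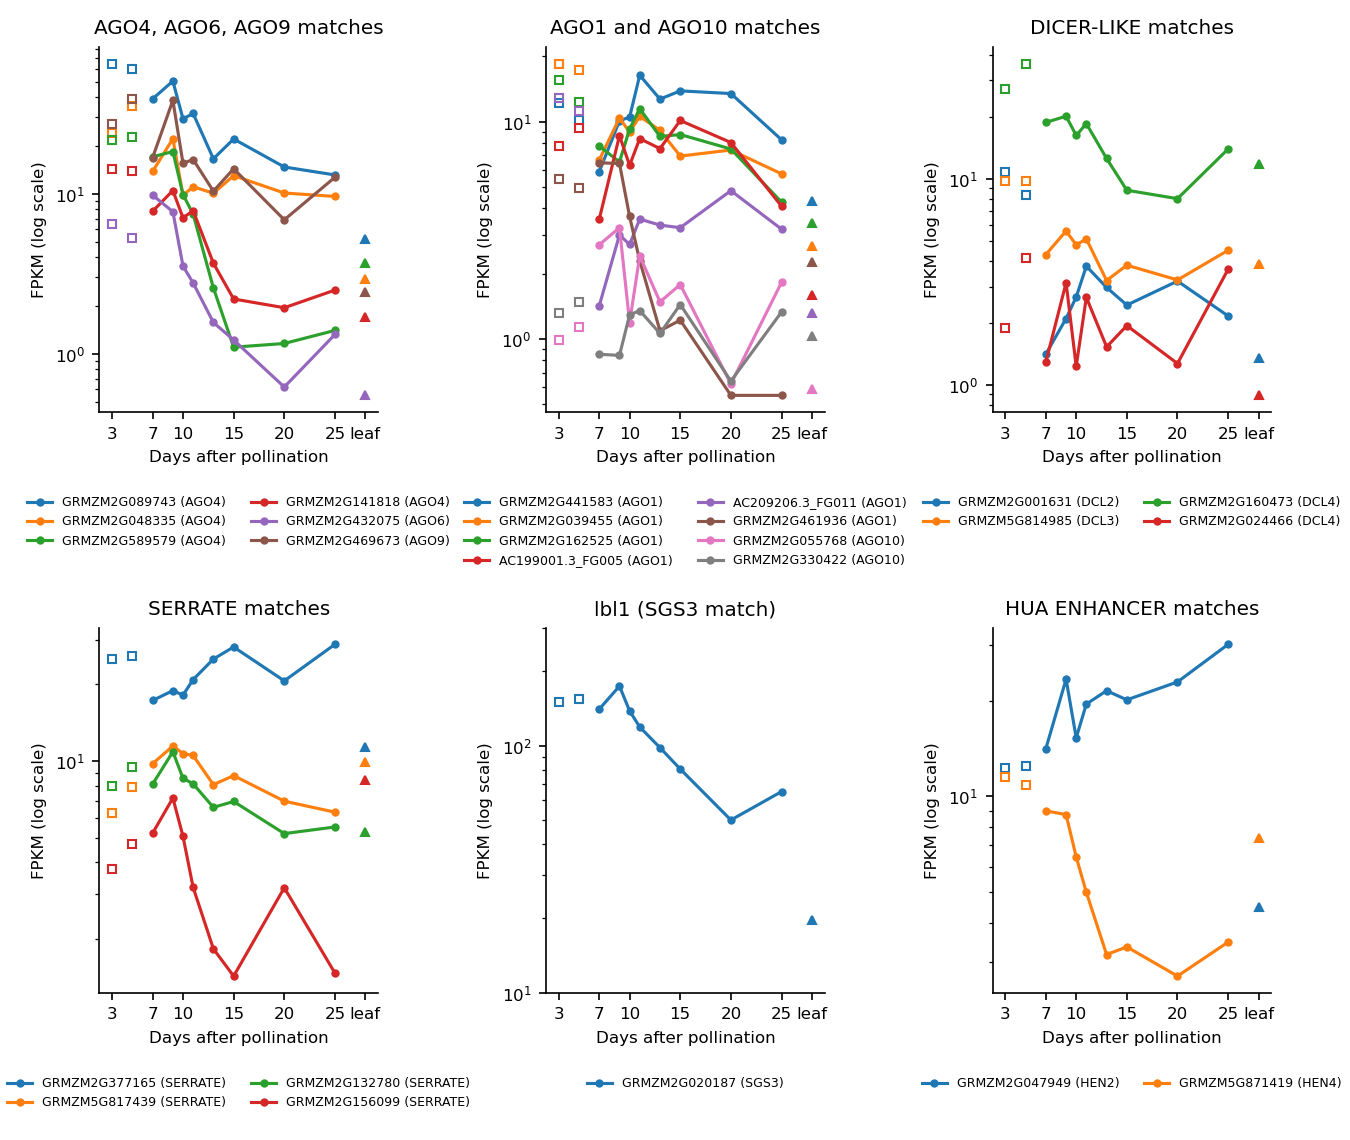
FPKM on a log scale against days after pollination for the 26 tested members other than rdr6, by role, with joined circles for endosperm, open squares for whole kernels at 3 and 5 DAP and triangles for ear leaf. The AGO4 match GRMZM2G589579 drops to 1.1 FPKM at 15 DAP, while the SERRATE gene SE1B and the HEN2 match stand at 28.75 and 30.17 FPKM at 25 DAP.

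Because levels within 1 library share its scaling, the makeup of the argonaute pool can be described without it. The AGO4, AGO6 and AGO9 matches held 72.5, 74, 62.5, 57, 49.2, 52.6, 44.3 and 56.2% of the summed argonaute FPKM over the endosperm stages in order. Their share was 60.7 and 65.4% in the 3 and 5 DAP kernels and 42.3% in leaf. The 7 and 9 DAP endosperm thus had the highest shares of the series, above the kernels, and leaf the lowest. The AGO1, AGO5 and AGO10 matches made up 26.3 and 25.1% at 7 and 9 DAP and 54.8% at 20 DAP. The summed argonaute level itself was between 73 and 201.9 FPKM in endosperm, 263 and 270.3 FPKM in kernels, and 39.2 FPKM in leaf.

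**Figure D4:**
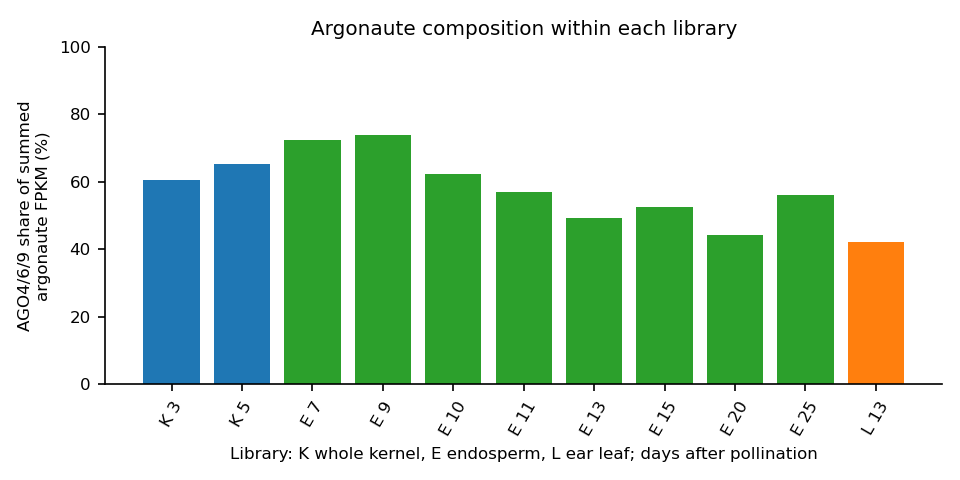
Share of the summed FPKM of all 31 argonaute matches held by the AGO4, AGO6 and AGO9 matches, in percent, for each library (K whole kernel, E endosperm, L ear leaf, with the day after pollination). The bars reach 74% in 9 DAP endosperm and 42.3% in leaf.

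The AGO2 and AGO7 matches were low in endosperm. AGO2 acts in virus defence in Arabidopsis, and its match GRMZM2G007791 stood at 1.63, 1.6, 0.86, 0.85, 0.41, 0.31, 0.67 and 0.81 FPKM, against 4.74 and 3.88 FPKM in kernels and 3.34 FPKM in leaf. All endosperm values were below both other tissues. The AGO7 match GRMZM5G892991, of the type that triggers trans-acting short interfering RNAs, was between 0 and 0.07 FPKM in endosperm and at 0.94 FPKM in leaf.

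SERRATE matches were 4, all tested, of which 3 fell and 1 was not called. SE1B (GRMZM2G377165) was the highest: its values were 17.3, 18.92, 18.16, 20.9, 25.17, 28.07, 20.66 and 28.75 FPKM in endosperm, 25.07 and 25.92 FPKM in kernels and 11.35 FPKM in leaf (adjusted p = 0.13). It was called as a rise after quantile normalization and after rescaling without the 100 highest genes. GRMZM5G817439 stood at 9.77, 11.46, 10.71, 10.52, 8.08, 8.77, 6.96 and 6.3 FPKM, with 6.28 and 7.91 FPKM in kernels and 9.91 FPKM in leaf. SE1A (GRMZM2G132780) stood at 8.12, 10.88, 8.56, 8.14, 6.58, 6.94, 5.19 and 5.51 FPKM, with 8 and 9.45 FPKM in kernels and 5.27 FPKM in leaf. Both were highest at 9 DAP, and leaf was within the endosperm range. Their slopes were small: -0.0417 ± 0.0131 SE for GRMZM5G817439 (adjusted p = 0.027) and -0.0431 ± 0.0146 SE for SE1A (0.036).

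Both slopes were close to the median of all genes, and both calls ended under each of the 3 other scalings. The call of SE1A ended without 9 DAP (0.07), 10 DAP (0.067), 11 DAP (0.062), 15 DAP (0.053), 20 DAP (0.086) or 25 DAP (0.05 after rounding). That of GRMZM5G817439 ended without 9 DAP (0.056), 10 DAP (0.057), 11 DAP (0.052), 20 DAP (0.057) or 25 DAP (0.091). Without both late libraries the adjusted p was 0.27 for SE1A and 0.38 for GRMZM5G817439, and without 9 and 25 DAP 0.083 and 0.15. The SERRATE match GRMZM2G156099 stood at 5.21, 7.16, 5.06, 3.19, 1.83, 1.43, 3.18 and 1.47 FPKM in endosperm, 3.76 and 4.73 FPKM in kernels and 8.42 FPKM in leaf, its highest library. Its fall (slope -0.0759 ± 0.028 SE, adjusted p = 0.049) ended without 7 DAP (0.11), 9 DAP (0.088), 10 DAP (0.091), 11 DAP (0.065) or 25 DAP (0.14), and after quantile normalization (0.28), upper quartile scaling (0.072) or rescaling without the 100 highest genes (0.21). It also ended with a pseudocount of 5 (0.054), without the filter (0.12), without the mean-variance trend (0.051) and without 9 and 25 DAP (0.23).

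The HUA ENHANCER matches entered by name alone. The Arabidopsis proteins HEN2 and HEN4 are an RNA helicase of nuclear RNA decay and an RNA-binding protein of flower development, and neither is the small RNA methyltransferase HEN1. The HEN2 match GRMZM2G047949 stood at 14.13, 23.42, 15.3, 19.55, 21.54, 20.16, 22.96 and 30.17 FPKM in endosperm, 12.26 and 12.5 FPKM in kernels and 4.47 FPKM in leaf. Every endosperm library was above both kernels and leaf. Its slope missed the threshold (0.0433 ± 0.0166 SE, adjusted p = 0.056) and was called as a rise without 9 DAP and under each of the 3 other scalings. The HEN4 match GRMZM5G871419 went the other way, at 9, 8.76, 6.44, 4.98, 3.17, 3.35, 2.71 and 3.47 FPKM, with 11.48 and 10.86 FPKM in kernels and 7.37 FPKM in leaf. It fell (slope -0.0728 ± 0.0225 SE, adjusted p = 0.025), but not without 7 DAP (0.084) or 20 DAP (0.071), nor after quantile normalization (0.16), rescaling without the 100 highest genes (0.14) or removal of the filter on low values (0.064).

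More machinery transcripts were higher in endosperm than in ear leaf than the reverse. With 1 library each, 13 DAP endosperm and 13 DAP leaf were compared by the log2 ratio of (FPKM + 1) without a test, among genes with at least 1 FPKM in either. Of 27 members compared, 10 were at least 2-fold higher in endosperm than in leaf and 3 at least 2-fold lower. Of the 3, GRMZM2G007791 passed this filter only through leaf, with 0.41 FPKM in 13 DAP endosperm and 3.34 FPKM in leaf. Its count as lower thus partly follows from the filter. Across all genes 18.8% were at least 2-fold higher in endosperm and 34.9% at least 2-fold lower. The median log2 ratio of endosperm over leaf was 0.73 for the members and -0.326 for all genes. The median of the members lay above 0 and that of all genes below 0 in this pair of libraries. Over the full series, all 8 endosperm libraries were above leaf for 17 of 31 members compared (23.5% of all genes) and below leaf for 3 of 31 (36.2% of all genes). A gene was compared here when leaf or any endosperm library reached 1 FPKM. Of the members above leaf, GRMZM2G347402, GRMZM2G432075, GRMZM2G055768 and GRMZM2G024466 entered only through endosperm. Leaf had 0.09, 0.55, 0.59 and 0.89 FPKM of them, so their count as above leaf partly follows from the filter.

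The members above leaf in all endosperm libraries were 6 AGO4, AGO6 and AGO9 matches, 6 AGO1 and AGO10 matches, 2 dicer matches, SE1B, lbl1 and the HEN2 match. Among the AGO4, AGO6 and AGO9 matches, GRMZM2G089743 and GRMZM2G048335 share 1 RefSeq gene, as do GRMZM2G432075 and GRMZM2G347402. The largest log2 ratios of 13 DAP endosperm over leaf were 2.26 for lbl1, 2.04 for the HEN2 match GRMZM2G047949, and 1.72 each for AC199001.3_FG005 and GRMZM2G469673. The lowest were -1.73 for the SERRATE match GRMZM2G156099, -1.62 for the AGO2 match GRMZM2G007791, -1.01 for the HEN4 match GRMZM5G871419 and -0.75 for rdr6. Of these, GRMZM2G156099, GRMZM2G007791 and rdr6 were below leaf at all 8 stages. With a pseudocount of 5 in place of 1, 4 members were at least 2-fold higher in endosperm and 0 at least 2-fold lower, while 9.36% and 18.5% of all genes were.

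**Figure D5:**
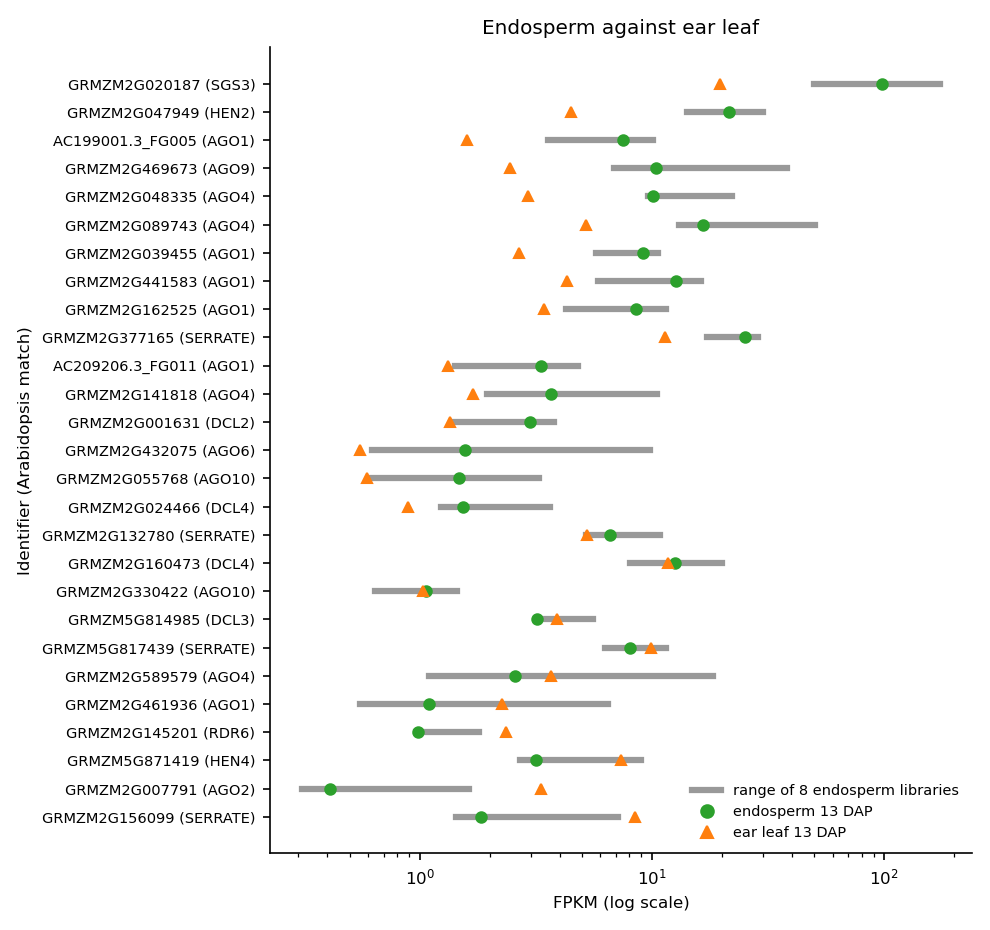
FPKM on a log scale for the 27 members compared with ear leaf, with the range of the 8 endosperm libraries as a grey bar, 13 DAP endosperm as a circle and 13 DAP ear leaf as a triangle, ordered by the ratio of endosperm to leaf. For lbl1 at the top the endosperm bar spans 49.99 to 174.18 FPKM and leaf is at 19.63 FPKM, and for GRMZM2G156099 at the bottom leaf lies above the bar at 8.42 FPKM.

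Young endosperm was compared with the whole kernels that precede it, which also hold maternal tissue and embryo, so tissue and age cannot be told apart. Of 34 members with at least 1 FPKM in any of the 3 libraries, 8 were at least 2-fold lower in 7 DAP endosperm than in both kernels, beside 23.4% of all genes. Among the 8, GRMZM2G105250, AC189879.3_FG003 and GRMZM2G427672 passed this filter only through the kernels. They had 0.82, 0.27 and 0.52 FPKM in 7 DAP endosperm, so their count as lower partly follows from the filter. At least 2-fold higher were 0 of the 34, beside 8.91% of all genes. All 8 endosperm libraries were below both kernels for 18 of 34 members (42.3% of all genes) and above both for 1 member, the HEN2 match (5.53% of all genes). A gene was compared here when any endosperm or kernel library reached 1 FPKM. Of the 18, AC189879.3_FG003 and GRMZM2G427672 entered only through the kernels. Their endosperm maxima were 0.49 and 0.52 FPKM, so their count as below both kernels partly follows from the filter. The median log2 ratio of 7 DAP endosperm over the 3 and 5 DAP kernels was -0.595 and -0.73 for the members, and -0.446 and -0.414 for all genes.

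The largest difference was that of the AGO5 match GRMZM2G123063, of a type known from the germ line in Arabidopsis and rice. It stood at 1.45 FPKM in 7 DAP endosperm and at or under 0.09 FPKM in the 7 later stages, against 15.78 and 12.55 FPKM in the 3 and 5 DAP kernels and 0.01 FPKM in leaf. The ratio of 7 DAP endosperm over the kernels was -2.78 and -2.47 on the log2 scale. The AGO1 match AC209206.3_FG011 (-2.52 and -2.33) and the DCL2 match GRMZM2G001631 (-2.28 and -1.96) came next. The others were the AGO1 matches GRMZM2G039455 and GRMZM2G105250, the AGO10 match AC189879.3_FG003, dcl3a and the HEN4 match GRMZM2G427672. Of these, AC189879.3_FG003 stood at 0.27 FPKM in 7 DAP endosperm and no higher than 0.49 FPKM in later endosperm, against 2.64 and 3.46 FPKM in kernels. The members most above kernels at 7 DAP were the AGO10 match GRMZM2G055768 (0.9 and 0.8) and the AGO6 match GRMZM2G432075 (0.53 and 0.78), both under 2-fold.

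Other genes of the pathway were taken from a list of description words and maize names, 27 in all, of which 23 were tested, 11 fell, 2 rose and 10 were not called, beside 37.4% falling and 10.3% rising among all tested genes. The median slope was -0.056 per day. Under quantile normalization 5 fell and 4 rose (21.2% and 20.4% of all genes), and without 20 and 25 DAP 5 fell and 1 rose (23.4% and 9.79%). The rises were of both matches to TUDOR-SN, an RNA-binding nuclease of stress granules in Arabidopsis: AC207890.3_FG002 (slope 0.128 ± 0.0228 SE, adjusted p = 0.0026) and GRMZM2G136296 (0.0701 ± 0.0211 SE, adjusted p = 0.023). The call of GRMZM2G136296 ended without 7 DAP (0.086), without 10 DAP (0.051), without both late libraries (0.055) and without 9 and 25 DAP (0.056). AC207890.3_FG002 stood at 472.18 FPKM at 25 DAP and 99.04 FPKM at 7 DAP, with 23.33 FPKM in leaf. The falls included both matches to CHROMOMETHYLASE 3, which keeps methylation outside CG sites, and rmr7 (GRMZM2G054225), a subunit of the plant polymerases that feed the methylation pathway (slope -0.0793 ± 0.0179 SE, adjusted p = 0.007). The rmr7 (GRMZM2G054225) call ended after quantile normalization (0.094) and without 20 and 25 DAP (0.26). The gene mop1 (GRMZM2G042443), the RNA-dependent RNA polymerase left out of the members, fell as well (slope -0.088 ± 0.0178 SE, adjusted p = 0.0043), but not without 20 and 25 DAP (0.25).

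The dcl1 gene (GRMZM2G040762), the microRNA dicer, is described in the table as ABNORMAL SUSPENSOR 1 and so was not a member. Its 7 DAP level was 8.27 FPKM, its 20 DAP level 5.59 FPKM and its 25 DAP level 13.2 FPKM, with 4.28 FPKM in leaf and no call (adjusted p = 0.92). The match to HASTY, an exporter of microRNAs, was uncalled too (0.67), as was GRMZM2G137366, a match to a methyltransferase of the DRM type (0.29). GRMZM2G137366 was between 17.56 and 33.14 FPKM in endosperm, against 3.74 FPKM in leaf, and was called as a rise after quantile normalization (0.017) and rescaling without the 100 highest genes (0.016). All 8 endosperm libraries were above leaf for 13 of 23 of these pathway genes and for 23.5% of all genes. Of the 13, the CHROMOMETHYLASE 3 match GRMZM2G005310 and the HASTY match reached 1 FPKM only in endosperm and kernels, with 0.4 and 0.99 FPKM in leaf. A further 6 genes caught by the list belong to other processes (subunits of RNA polymerases I and III, and a cap-binding protein of translation), and 3 of them fell.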

How the data were processed

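The table holds FPKM values that the authors calculated and deposited, with 1 column per library and 2 decimals. The tools named, per the submitters' processing notes, are cutadapt, TopHat2 and edgeR. Their versions and roles, and likewise the genome build and the annotation, were not given in the sources used here. No counts are given, so depth is unknown and no counting interval is printed. A value of 0 means that a gene is listed at 0.

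Members were found by words in the Arabidopsis description (present for 11464 of 34145 identifiers). The members and lists were chosen with earlier results of these data known. Maize names came from the synonyms of RefSeq genes of assembly Zm-B73-REFERENCE-NAM-5.0, which matched 18367 identifiers and 25 members. No coordinates or sequences were used. Reads of near-identical argonaute copies may be shared between them by the mapping.

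Trends were fitted to log2(FPKM + 1) with limma 3.58.1 in R 4.3.3 (eBayes with trend), with 6 residual degrees of freedom for the slope and 5 for the curved test, two-sided, at a threshold of 0.05. A fold on this scale understates changes of low genes. The script was tested on simulated slopes. Values in every library are given for the 2 members of each role with the highest endosperm mean, the 8 steepest falls, the 4 smallest curved p without a slope call, and the largest ratios each way between tissues (4 for leaf, 3 for kernels). Further members described were chosen after their values were seen. Comparisons of all 8 endosperm libraries with leaf or kernels were added after seeing the data. Alternatives were other pseudocounts, filters, scalings, day scales and left-out libraries.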

Additional observations from a re-analysis of the deposited data

How the results depend on the processing

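Scaling changed the balance of calls in the members and in all genes alike. Against 10 falls and 0 rises, quantile normalization gave 4 and 3 (median slope -0.00462; 21.2% and 20.4% of all genes), rescaling without the 100 highest genes 5 and 3 (-0.0039; 23.3% and 20.9%) and upper quartile scaling 7 and 1 (31.8% and 12.6%). Without the filter on low values 2 low AGO5 matches rose (median -0.017 over 48 members, -0.00394 over all genes), and a pseudocount of 5 gave a median of -0.0246 (all genes -0.0176). Leaving out 1 library at a time gave 7 to 10 falls, 0 to 1 rises (the HEN2 match without 9 DAP, AC209206.3_FG011 without 25 DAP), 9 to 12 curved calls and medians from -0.0441 to -0.0319. Without 20 and 25 DAP 6 curved calls were made (16.5% of all genes), and without 9 and 25 DAP, chosen after seeing the data, 1 rise (8.18%). The slope on log2 of the day has another unit, so no median is given. Of the 10 falls, 3 were called under every alternative that tested them, and 0 turned sign. Of the 5 curved calls without a called slope, 0 were kept under every alternative.

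For 13 DAP endosperm over leaf, a pseudocount of 5 gave 4 members at least 2-fold higher and 0 lower (9.36% and 18.5% of all genes), and a 4-fold limit 2 and 0 (6.62% and 18.3%). All 8 endosperm libraries were below leaf for 5 members without the filter (32.1% of all genes), 1 at 5 FPKM or more (34.8%) and 1 after quantile normalization (28.7%). For 7 DAP endosperm over kernels, 3 members were at least 2-fold lower with a pseudocount of 5 (8.18%), 5 at 5 FPKM or more (27.2%), 3 after quantile normalization (13.9%) and 2 at 4-fold (6.61%). At least 2-fold higher was 1 member under quantile normalization (13.2%), upper quartile scaling (13.9%) and a pseudocount of 0.1 (11%). After quantile normalization all endosperm libraries were below both kernels for 11 members (22.8%) and above both for 6 (21.8%). They were above both for 2 members without the filter (3.8%), after upper quartile scaling (11.6%) and after rescaling without the 100 highest genes (9.47%). The cause of these shifts was not tested. No paired analysis was possible because each stage has 1 library and the labels give no replicate numbers. Depth is unknown, so levels under 1 FPKM carry an unmeasured counting error.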

Other observations

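Some members share a RefSeq gene. By its synonyms 7 members fall in 3 RefSeq genes: GRMZM2G160473, GRMZM2G024466 and GRMZM2G050882 in dcl4, GRMZM2G089743 and GRMZM2G048335 in 1 AGO4-like gene, and GRMZM2G432075 and GRMZM2G347402 in argonaute6. Their values differed in level and in course. The dcl4 identifier GRMZM2G024466 stood at 1.29, 3.13, 1.23, 2.66, 1.53, 1.94, 1.27 and 3.64 FPKM over the endosperm stages, 1.89 and 4.12 FPKM in the 3 and 5 DAP kernels and 0.89 FPKM in leaf, with no call (adjusted p = 0.46). It was 6.87% of the level of GRMZM2G160473 in 7 DAP endosperm and 7.58% at 10 DAP, and 15.6% at 9 DAP and 14.4% at 11 DAP, with a maximum of 26.1% in the last stage. Its FPKM was highest in the 5, 9, 11 and 25 DAP libraries.

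Of the AGO4-like pair, GRMZM2G089743 fell and GRMZM2G048335 was not called (adjusted p = 0.24). GRMZM2G048335 stood at 13.78, 22.05, 9.77, 11.06, 10.07, 12.97, 10.1 and 9.62 FPKM over the endosperm stages, 24.03 and 35.44 FPKM in kernels and 2.93 FPKM in leaf. Its level was 35.2% of that of GRMZM2G089743 at 7 DAP, 60.9% at 13 DAP and 73.4% at 25 DAP. The argonaute6 identifier GRMZM2G347402 was at 0.3 FPKM at 25 DAP, against its maximum of 1.81 FPKM at 9 DAP. Whether such identifiers are parts of 1 gene or separate copies was not tested, since only the synonyms were matched, and GRMZM2G344781 matched 2 RefSeq genes.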
